A study of Pseudotaxus chienii and Amentotaxus argotaenia and Torreya grandis with 9 samples.

Results

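The features described here are 81 transcript features that all 3 yew-family species transcribed and that stood lower in the twigs of Torreya grandis than in those of Pseudotaxus chienii and Amentotaxus argotaenia. A feature was taken if it had at least 1 TPM in all 9 libraries, if the lowest of the 6 P. chienii and A. argotaenia libraries was at least 3 times the highest T. grandis library, and if the T. grandis mean was at least 5% of the mean of each other species. TPM is a length-normalised unit of transcript abundance with the same total in each library. Of 88609 features in all, 11382 reached 1 TPM in all 9 libraries, and 81 of these met the rule. The same rule turned to the other species gave 138 features lowered in P. chienii and 127 lowered in A. argotaenia.

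RNA-seq was done on fresh twigs, wood and needles together, of 3-year-old plants kept at 25 °C with 12 h of light a day. T. grandis and A. argotaenia are labelled as trees that do not produce taxol, and P. chienii is labelled as producing it. Each species has 3 libraries, and the labels do not say whether they came from separate trees, so the p-values refer to the spread of these libraries alone, which could be of technical origin. T. grandis was therefore set against 1 species of each label, and its difference from them is not a contrast of the taxol label.

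Taxol is a diterpenoid of the yew family, built from the plastid precursor geranylgeranyl diphosphate by a cyclising synthase and a series of oxygenases and acyl transferases. Torreya grandis is grown for its oil-rich edible seeds and is a close relative of Amentotaxus. In a de novo assembly by Trinity, overlapping reads are gathered into components, and each component is divided into gene-level features that can stand for paralogs, allele or species versions of 1 gene, or fragments of it. The files give feature IDs without gene names or sequences, so no gene or function is named for any feature here. In a bulk sample, fewer cells of a type and less RNA per cell cannot be told apart.

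The libraries summed to between 999890 and 999947 TPM, and no read number can be given for a value, because TPM keeps no depth. Between 37701 and 46682 features reached 1 TPM in a library. The library of its species least like the others was replicate 3 in T. grandis, replicate 1 in P. chienii and replicate 2 in A. argotaenia, with correlations to the others between 0.879 and 0.911 across all features on log2(TPM + 1). The deviations of these 3 libraries, which stood apart in this way, from their species means correlated with each other across tested features, at 0.398, 0.328 and 0.298. Counts and differences below that moved by over 1.5 times without them are given both ways. At features abundant in P. chienii alone the T. grandis libraries held a median of 0.309%, 0.222% and 0.115% of the P. chienii level in replicates 1, 2 and 3, and at features abundant in A. argotaenia alone 0.648%, 0.421% and 0.133% of the A. argotaenia level. Such features had a mean of at least 100 TPM in that species and under 2% of it in each other species. These shares are thus low through that choice. The T. grandis means described here are at least 5% of those of each other species through the rule, so the shares are not compared with them.

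The 81 features summed to 713, 742 and 735 TPM in T. grandis, against 6001, 5659 and 5777 TPM in P. chienii and 5113, 4946 and 5375 TPM in A. argotaenia. They thus made up 0.0730% ± 0.00148 of all TPM in T. grandis, 0.581% ± 0.0174 in P. chienii and 0.515% ± 0.0216 in A. argotaenia (SD, n = 3 each). These levels chose the features, so the gap between T. grandis and the others is a description and was not tested. The T. grandis mean of a feature ranged from 1.19 to 79.5 TPM with a median of 5.53 TPM. In P. chienii the means ranged from 5.51 to 951 TPM with a median of 38.2 TPM, and in A. argotaenia from 5.15 to 561 TPM with a median of 42.8 TPM. In T. grandis 10 features averaged under 2 TPM, 52 between 2 and 10 TPM and 19 at 10 TPM or more. None averaged 100 TPM there, while 12 did in P. chienii and 13 in A. argotaenia.

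**Figure D1:**
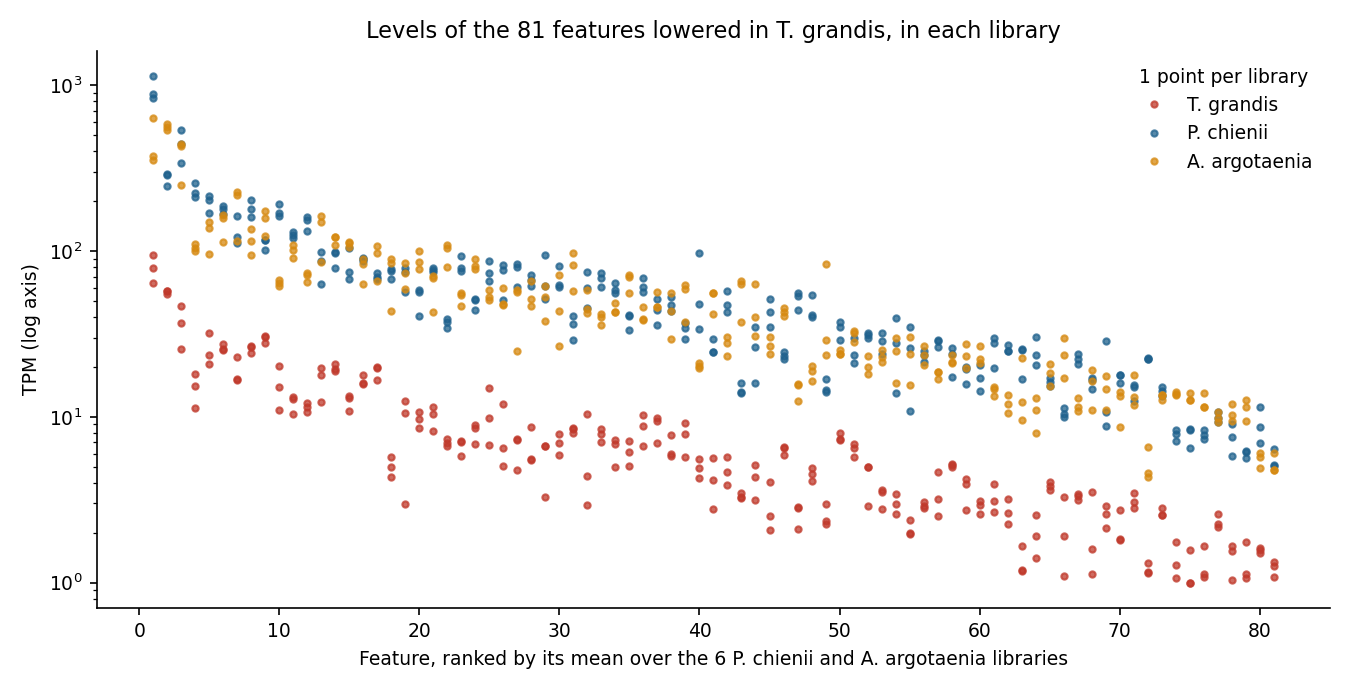
TPM (log axis) of each of the 81 features in the 9 libraries, 1 point per library, with features ranked by their mean over the 6 P. chienii and A. argotaenia libraries. The T. grandis points form a separate band below the others along the whole range, a gap that the choice of features fixes, while the P. chienii and A. argotaenia points overlap in level.

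As a share of the other species, the T. grandis mean was between 5.08% and 26.8% of the P. chienii mean, with a median of 14.2%, and between 5.60% and 30.7% of the A. argotaenia mean, with a median of 14.7%. On the log2(TPM + 1) scale the median difference was -2.63 from P. chienii and -2.50 from A. argotaenia, while over all 11382 features shared by the 9 libraries the medians were -0.07 and 0.07. Both differences use the same T. grandis libraries. All shared features had a median level of 13.0 TPM in T. grandis, 13.9 in P. chienii and 12.4 in A. argotaenia, so the median of the 81 features lay below this level in T. grandis and above it in the other species.

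The most abundant of them was TRINITY_DN37642_c2_g1, at 64.2, 94.9 and 79.4 TPM in T. grandis, against 1136, 837 and 881 TPM in P. chienii and 352, 633 and 376 TPM in A. argotaenia. P. chienii held the highest level of the 3 species here, with no overlap between P. chienii and A. argotaenia. TRINITY_DN38018_c1_g1 was at 57.6, 55.1 and 57.5 TPM in T. grandis, against 245, 286 and 293 TPM in P. chienii and 558, 586 and 540.4 TPM in A. argotaenia. Its order was the other way, with A. argotaenia above P. chienii in every library, and the T. grandis libraries lay within 3 TPM of each other. TRINITY_DN45930_c1_g1 was at 46.9, 36.8 and 25.8 TPM in T. grandis, against 338, 445 and 534 TPM in P. chienii and 444, 249.6 and 432 TPM in A. argotaenia. The P. chienii and A. argotaenia libraries overlapped at this feature.

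TRINITY_DN47843_c0_g2 was at 18.0, 15.4 and 11.3 TPM in T. grandis, against 211, 223 and 258 TPM in P. chienii and 109.7, 104 and 99.9 TPM in A. argotaenia. It was ordered P. chienii, A. argotaenia, T. grandis with no overlap between any pair of species. TRINITY_DN46719_c1_g9 was at 20.7, 23.4 and 31.9 TPM in T. grandis, against 216, 170.4 and 203 TPM in P. chienii and 149, 95.9 and 137 TPM in A. argotaenia, in the same order. Its T. grandis replicate 3 and A. argotaenia replicate 2 came closest, and it met the rule by the narrowest margin of all 81. TRINITY_DN41890_c0_g1 was at 27.5, 25.4 and 25.6 TPM in T. grandis, against 179, 187 and 168 TPM in P. chienii and 113, 165 and 159 TPM in A. argotaenia. The lowest other library was A. argotaenia replicate 1, and the T. grandis libraries were close to each other.

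TRINITY_DN44010_c0_g1 was at 23.0, 16.9 and 16.6 TPM in T. grandis, against 163, 111 and 122 TPM in P. chienii and 217, 114 and 226 TPM in A. argotaenia. A. argotaenia replicate 2, 1 of the libraries that stood apart, was at the level of P. chienii while the other A. argotaenia libraries were above it. TRINITY_DN41806_c0_g1 was at 24.3, 26.5 and 26.8 TPM in T. grandis, against 204, 178 and 159.7 TPM in P. chienii and 94.1, 137 and 115 TPM in A. argotaenia. TRINITY_DN43129_c1_g2 was at 30.1, 30.8 and 27.9 TPM in T. grandis, against 102, 116 and 117 TPM in P. chienii and 123, 174 and 158 TPM in A. argotaenia, with a lower level in P. chienii than in A. argotaenia in each library. TRINITY_DN53021_c1_g1 was at 11.04, 15.1 and 20.2 TPM in T. grandis, against 191, 169 and 163 TPM in P. chienii and 64.0, 67.1 and 61.4 TPM in A. argotaenia, and the A. argotaenia libraries lay between those of the other species without overlap. The 10 features above held 45.1% of the summed level of all 81 in T. grandis, 49.4% in P. chienii and 44.4% in A. argotaenia.

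The ratio of the highest T. grandis library to the lowest other library measures how far the groups stood apart. It ranged from 0.132 to 0.333 with a median of 0.267, and was under 0.25 for 35 features and under 0.2 for 14. TRINITY_DN49557_c0_g1 had the lowest ratio, at 5.75, 4.31 and 4.97 TPM in T. grandis, against 67.4, 76.1 and 77.9 TPM in P. chienii and 84.4, 43.7 and 90.1 TPM in A. argotaenia. TRINITY_DN38612_c0_g1 followed with a ratio of 0.144, at 13.1, 12.8 and 10.3 TPM in T. grandis, against 119.8, 129 and 125 TPM in P. chienii and 101, 91.4 and 108 TPM in A. argotaenia. At the first the P. chienii and A. argotaenia libraries overlapped, and at the second each P. chienii library lay above those of A. argotaenia. TRINITY_DN53544_c5_g2 had a ratio of 0.151, at 3.08, 2.83 and 2.89 TPM in T. grandis, against 23.7, 25.0 and 21.3 TPM in P. chienii and 20.4, 23.6 and 26.6 TPM in A. argotaenia. TRINITY_DN48644_c0_g1 had a ratio of 0.154, at 7.17, 7.05 and 5.82 TPM in T. grandis, against 92.8, 79.4 and 75.5 TPM in P. chienii and 54.2, 46.5 and 56.1 TPM in A. argotaenia. The T. grandis libraries of these last features lay within 2 TPM of each other. TRINITY_DN38494_c0_g1, with a ratio of 0.168, was at 7.21, 6.82 and 4.95 TPM in T. grandis, against 63.7, 55.5 and 58.3 TPM in P. chienii and 42.9, 43.1 and 48.8 TPM in A. argotaenia.

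Features near the thresholds differed little across them. Just inside 0.333 were TRINITY_DN46719_c1_g9 at 0.333, TRINITY_DN44851_c1_g1 at 0.332 and TRINITY_DN33842_c0_g1 at 0.330. Just outside were TRINITY_DN53154_c1_g1 at 0.334, TRINITY_DN47262_c1_g1 at 0.336 and TRINITY_DN52721_c2_g1 at 0.336. A further 40 features met that threshold but had a T. grandis mean under 5% of another species. At that threshold the nearest on the inside was TRINITY_DN47717_c0_g1, at 5.08% of P. chienii, and the nearest on the outside was TRINITY_DN52988_c1_g2, at 4.88% of P. chienii. TRINITY_DN52721_c2_g1 belongs to the same component as TRINITY_DN52721_c2_g2, which is among the 81 at 19.8, 17.9 and 12.3 TPM in T. grandis, against 99.0, 86.5 and 63.3 TPM in P. chienii and 162, 85.2 and 150.1 TPM in A. argotaenia. The feature just outside stood at 3.56, 3.63 and 5.49 TPM in T. grandis, against 35.4, 33.9 and 30.5 TPM in P. chienii and 20.9, 16.3 and 20.7 TPM in A. argotaenia. Another feature of the component ran the other way, at 2.18, 1.18 and 2.52 TPM in T. grandis, and was listed at 0 in the 6 libraries of P. chienii and A. argotaenia.

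The spread between libraries of a species is given beside that of all shared features. The median coefficient of variation of the 81 features was 16.1% in T. grandis, 11.6% in P. chienii and 13.8% in A. argotaenia, beside 15.0%, 14.4% and 17.9% over all shared features in the same order of species. It exceeded 50% for 4 features in T. grandis, 3 in P. chienii and 1 in A. argotaenia. In T. grandis these were TRINITY_DN31212_c0_g1 at 2.96, 12.4 and 10.6 TPM, TRINITY_DN53367_c2_g1 at 2.95, 4.39 and 10.5 TPM, TRINITY_DN33842_c0_g1 at 1.91, 1.09 and 3.27 TPM and TRINITY_DN47279_c1_g3 at 3.50, 1.12 and 1.60 TPM. No single T. grandis library carried these high values. The lowest T. grandis value fell in replicate 1 for 30 features, in replicate 2 for 27 and in replicate 3 for 24. The highest fell in replicate 3 for 36 features, in replicate 1 for 28 and in replicate 2 for 17. Among the 6 other libraries the lowest value was in A. argotaenia replicate 2 for 24 features, A. argotaenia replicate 1 for 20, P. chienii replicate 1 for 19, P. chienii replicate 3 for 11, P. chienii replicate 2 for 4 and A. argotaenia replicate 3 for 3. A. argotaenia replicate 2 and P. chienii replicate 1, which stood apart, thus set the margin for many features. So did A. argotaenia replicate 1, which did not stand apart.

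A T. grandis library that had no part in the choice was then read for features chosen from the other 8 libraries. Without replicate 1 the rule chose 116 features, and replicate 1 was below all 6 other-species libraries at each of the 116, with a median ratio of 0.238 to the lowest of them. It met the ratio of 0.333 at 90 of the 116, or 77.6%. Without replicate 2 the rule chose 96 features, of which 91, or 94.8%, met the ratio in replicate 2, and all 96 were below the other libraries there, with a median ratio of 0.215. Without replicate 3 the rule chose 158 features. Replicate 3 met the ratio at 88 of these, or 55.7%, and lay below the other libraries at 157, with a median ratio of 0.306 and a highest ratio of 1.11. For all features that reached 1 TPM in each of the 8 libraries, the left-out library met the ratio at 3.42%, 3.24% and 2.39% and lay below the other libraries at 27.7%, 27.0% and 20.7% in replicates 1, 2 and 3. The number of features chosen was highest without T. grandis replicate 3, at 158, beside 116 and 96 without replicates 1 and 2. With all 9 libraries it was 81. Without all 3 libraries that stood apart it was 220, and fewer libraries loosen the rule by construction. The features were still below the other species in nearly every left-out library, but by less than the threshold more often in replicate 3. The 6 other libraries had also chosen the features, and T. grandis replicates correlated at 0.955 to 0.979 over shared features on log2(TPM + 1). A left-out library was thus likely to fall low as well, so these shares are a description and not a test.

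**Figure D2:**
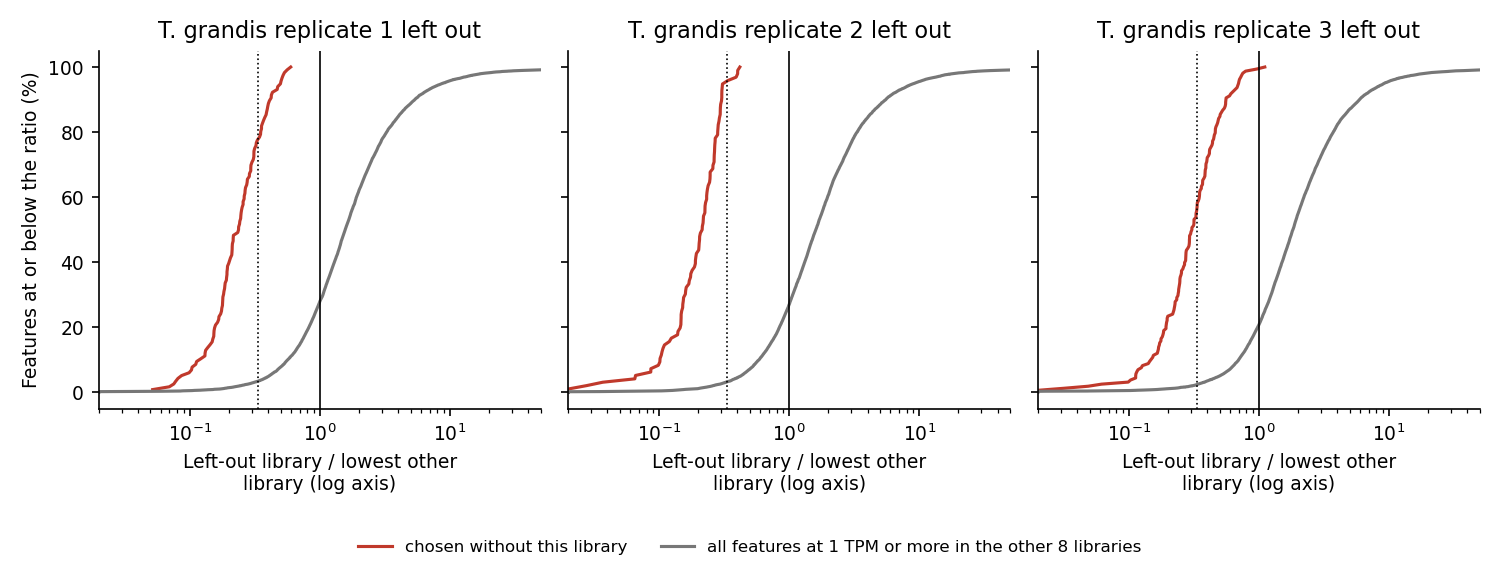
Cumulative share of features (%) by the ratio of a left-out T. grandis library to the lowest of the 6 P. chienii and A. argotaenia libraries (log axis), 1 panel per left-out replicate, with values under 0.02 drawn at 0.02. Features chosen without that library (red) lie left of the solid line at a ratio of 1, apart from 1 feature in replicate 3, and 77.6%, 94.8% and 55.7% lie at or left of the dotted line at 0.333, against 3.42%, 3.24% and 2.39% of all features that reached 1 TPM in the other 8 libraries (grey).

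P. chienii, which is labelled as producing taxol, was compared with A. argotaenia, which is not, at the same features. T. grandis has no part in the difference itself, though its libraries entered the shared estimate of the spread. The rule bounds it, because each species mean must lie between 3 and 20 times the T. grandis mean, so the means of P. chienii and A. argotaenia cannot differ by more than 2.74 on a log2 scale of TPM. By limma on log2(TPM + 1) with p-values adjusted over 75926 features, 16 of the 81 passed an adjusted p of 0.05 together with a 2-fold minimum. P. chienii was the higher species at 10 of these and the lower at 6. The 16 are 19.8% of the 81, beside 62.6% of all features tested and 37.2% of the 11382 shared features, of which 21.7% were higher and 15.5% lower. Of the 4230 shared features that changed, 546 lay beyond the range the rule allows on the log2(TPM + 1) scale. Without a minimum fold 44 of the 81, or 54.3%, passed, beside 61.3% of shared features. The libraries of P. chienii and A. argotaenia did not overlap at 51 of the 81 features, beside 67.4% of shared features. The median difference was 0.11 for the 81 and 0.15 for all shared features, and the median size of the difference was 0.59 and 0.75.

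The largest rise in P. chienii was that of TRINITY_DN41098_c1_g1, at 22.4, 22.6 and 22.5 TPM in P. chienii and 4.61, 4.31 and 6.53 TPM in A. argotaenia. It averaged 22.5 ± 0.0737 TPM in the P. chienii libraries and 5.15 ± 1.20 TPM in those of A. argotaenia (SD, n = 3 each), with a log2 difference of 1.95 ± 0.16 (SE; limma adjusted p = 5.60e-06). In T. grandis it was at 1.16, 1.14 and 1.32 TPM, so no library of 1 species overlapped those of another. TRINITY_DN47717_c0_g1 was at 44.3, 53.2 and 55.5 TPM in P. chienii and 12.5, 15.5 and 15.8 TPM in A. argotaenia. It averaged 51.0 ± 5.92 TPM in the P. chienii libraries and 14.6 ± 1.82 TPM in those of A. argotaenia (SD, n = 3 each), with a log2 difference of 1.74 ± 0.15 (SE; limma adjusted p = 1.08e-05). Its T. grandis libraries were at 2.85, 2.81 and 2.11 TPM. TRINITY_DN53021_c1_g1, whose library values are given above, also rose, with a log2 difference of 1.43 ± 0.19 (SE; limma adjusted p = 1.74e-04). TRINITY_DN47999_c0_g2 was at 97.5, 33.7 and 47.9 TPM in P. chienii and 19.6, 20.2 and 21.0 TPM in A. argotaenia. It averaged 59.7 ± 33.5 TPM in the P. chienii libraries and 20.3 ± 0.685 TPM in those of A. argotaenia (SD, n = 3 each), with a log2 difference of 1.37 ± 0.33 (SE; limma adjusted p = 0.0052). P. chienii replicate 1 carried much of this rise, and without that library the log2 difference was 0.95, under 2-fold.

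The largest fall was that of TRINITY_DN49561_c0_g4, at 14.2, 16.0 and 13.8 TPM in P. chienii and 63.3, 37.5 and 66.1 TPM in A. argotaenia. It averaged 14.7 ± 1.14 TPM in the P. chienii libraries and 55.6 ± 15.8 TPM in those of A. argotaenia (SD, n = 3 each), with a log2 difference of -1.81 ± 0.21 (SE; limma adjusted p = 5.79e-05). A. argotaenia was the high species here, and P. chienii lay nearer to the T. grandis level of 3.30, 3.23 and 3.45 TPM. TRINITY_DN40532_c0_g1 was at 38.9, 37.5 and 34.4 TPM in P. chienii and 105, 80.0 and 109 TPM in A. argotaenia. It averaged 37.0 ± 2.32 TPM in the P. chienii libraries and 98.0 ± 15.8 TPM in those of A. argotaenia (SD, n = 3 each), with a log2 difference of -1.37 ± 0.14 (SE; limma adjusted p = 2.52e-05). Both falls had no overlap between the species. TRINITY_DN47254_c0_g1 was at 14.0, 14.6 and 17.0 TPM in P. chienii and 23.4, 83.0 and 29.0 TPM in A. argotaenia. It averaged 15.2 ± 1.58 TPM in the P. chienii libraries and 45.1 ± 32.9 TPM in those of A. argotaenia (SD, n = 3 each), with a log2 difference of -1.29 ± 0.41 (SE; limma adjusted p = 0.0204). The A. argotaenia level rested on replicate 2, and without it the log2 difference was -0.75 and no longer passed, nor did it at -0.69 without the 3 libraries that stood apart. The call was also lost, with differences of -1.24 and -1.26, without P. chienii replicate 1 or 2, and at -1.29 when only P. chienii and A. argotaenia were fitted. TRINITY_DN52986_c3_g1 was at 28.9, 40.4 and 36.2 TPM in P. chienii and 57.0, 82.7 and 97.6 TPM in A. argotaenia. It averaged 35.2 ± 5.82 TPM in the P. chienii libraries and 79.1 ± 20.5 TPM in those of A. argotaenia (SD, n = 3 each), with a log2 difference of -1.13 ± 0.21 (SE; limma adjusted p = 0.00109). Its log2 difference was -0.99 without P. chienii replicate 1 and -0.96 without A. argotaenia replicate 3, both just under 2-fold.

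The balance of higher and lower features in P. chienii depended on the scaling. Trimmed-mean scaling, which centres the shared features, gave 5 higher and 7 lower. Without the 3 libraries that stood apart 6 were higher and 5 lower, and with only the compared species in the fit 5 were lower. The other 65 of the 81 features did not pass, and of these 28 had an adjusted p under 0.05 with a change under 2-fold.

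**Figure D3:**
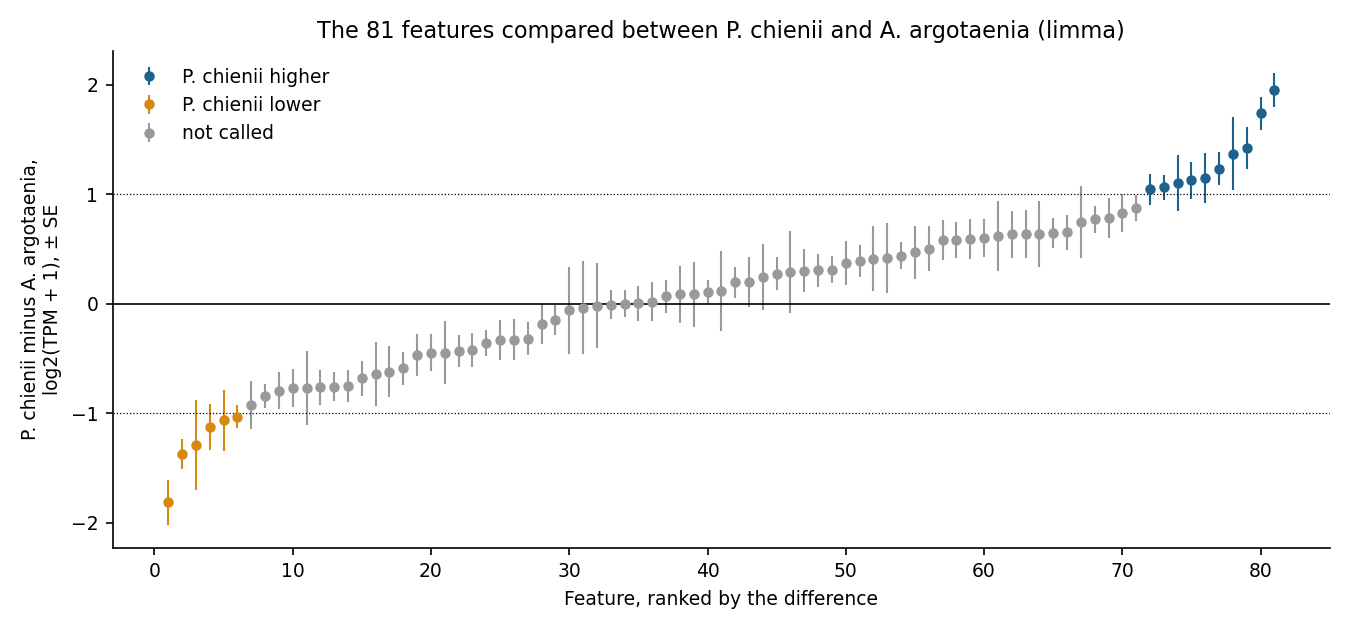
Difference between P. chienii and A. argotaenia on the log2(TPM + 1) scale for each of the 81 features, ranked from the lowest to the highest. Bars show the SE of limma, and dotted lines stand at 2-fold. The 10 features called higher in P. chienii reach 1.95, the 6 called lower reach -1.81, and the other 65 lie between or miss the adjusted p.

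Each of the 81 features belonged to a different Trinity component. For 24 of them, or 29.6%, the feature was the only one of its component, as it was for 35.2% of all shared features. The other 57 components held between 2 and 10 features. Where a component is divided into features that differ between species, the level of 1 feature need not follow that of the whole component, so the sums were examined next. The component sum includes the chosen feature and is therefore described without a test. In 28 of the 57 components the highest T. grandis sum was at most 0.333 times the lowest other sum, as in 1.38% of the 6726 components of several features that hold a shared feature. In 14 it was below all other sums but by less, beside 15.4%. In 14 the T. grandis sums overlapped those of the other species, beside 65.5%, and in 1 they lay above them, beside 17.7%. Nothing is read from these shares, because the sums hold the feature that the rule chose for its low level. The chosen feature held a median of 59.7% of its component in T. grandis, 92.6% in P. chienii and 82.6% in A. argotaenia. It was the leading feature of the component in T. grandis in 34 of the 57 components, and in P. chienii and in A. argotaenia in 46 each. Of all shared features in such components, 76.8% led in T. grandis, 75.2% in P. chienii and 75.4% in A. argotaenia, and a feature chosen for a low T. grandis level leads there less often through the choice itself.

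The component with the T. grandis sums above the others was TRINITY_DN41455_c0, at 1699, 1686 and 1614 TPM in T. grandis, against 672, 683 and 707 TPM in P. chienii and 599, 584 and 561 TPM in A. argotaenia. Its chosen feature TRINITY_DN41455_c0_g6 was at 8.57, 8.95 and 6.85 TPM in T. grandis, against 51.3, 50.9 and 44.2 TPM in P. chienii and 81.3, 78.1 and 89.9 TPM in A. argotaenia, a small part of the sum. TRINITY_DN41455_c0_g4 held most of the T. grandis level, at 1661, 1661 and 1584 TPM in T. grandis, against 1.64, 14.1 and 9.05 TPM in P. chienii and 501, 488 and 447 TPM in A. argotaenia. TRINITY_DN41455_c0_g8 held most of the P. chienii level, at 2.11, 1.11 and 0.99 TPM in T. grandis, against 619, 617 and 653 TPM in P. chienii and 1.02, 0.75 and 1.50 TPM in A. argotaenia. The order of the species thus differed between features of 1 component.

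In 40 of the 57 components the chosen feature led in both P. chienii and A. argotaenia. In 11 of these 40 another feature led in T. grandis, a larger share than the 11.3% among all shared features that led in both. A feature chosen for a low T. grandis level loses the lead there more readily through the choice itself, so nothing is read from this gap. Of these 11, 9 had overlapping component sums and 2 had lower sums in T. grandis. In TRINITY_DN53544_c5 the chosen feature was at the levels given above, while TRINITY_DN53544_c5_g1 was at 36.1, 31.9 and 32.8 TPM in T. grandis, against 0.06, 0.35 and 0.16 TPM in P. chienii and 13.2, 23.9 and 13.8 TPM in A. argotaenia. The component as a whole was at 40.5, 36.5 and 39.7 TPM in T. grandis, against 35.0, 37.5 and 32.5 TPM in P. chienii and 35.0, 48.9 and 41.9 TPM in A. argotaenia, so its sums overlapped across all 3 species. In TRINITY_DN49739_c0 the chosen feature TRINITY_DN49739_c0_g1 was at 2.56, 2.54 and 2.81 TPM in T. grandis, against 15.1, 13.4 and 14.4 TPM in P. chienii and 12.6, 13.5 and 13.5 TPM in A. argotaenia. Its companion TRINITY_DN49739_c0_g2 was at 9.74, 9.0 and 10.9 TPM in T. grandis and was listed at 0 in all 6 other libraries. Together they were at 12.3, 11.5 and 13.8 TPM in T. grandis, against 15.1, 13.4 and 14.4 TPM in P. chienii and 12.6, 13.5 and 13.5 TPM in A. argotaenia. TRINITY_DN47484_c0_g3 was at 10.9, 8.30 and 18.5 TPM in T. grandis, and at 0 in the other libraries except 0.0700 TPM in A. argotaenia replicate 2. Its component held the chosen feature TRINITY_DN47484_c0_g1, at 1.27, 1.07 and 1.76 TPM in T. grandis, against 7.18, 8.32 and 7.85 TPM in P. chienii and 13.4, 13.8 and 14.0 TPM in A. argotaenia. These examples were chosen after their values were seen. Whether such features are versions of the same transcript in different species was not tested, since no sequences were compared.

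To test the components on features the rule could not have chosen, the features of each component that fell below 1 TPM in any library were summed. There were 55 components with such remaining features, of which 51 passed the filter of 1 TPM in at least 3 libraries. T. grandis was set against the mean of both other species by limma, with p-values adjusted over 6143 components that hold a shared feature. In T. grandis they were higher than that mean in 17 of the 51 components and lower in 23, and 11 did not pass. The shares of 33.3% higher and 45.1% lower are to be read beside 28.5% higher and 38.7% lower over all components tested, to which they are near. The median log2 difference was -0.34 for the 51 components and -0.45 for all. With a pseudocount of 5 TPM, 11 were higher and 15 lower. The filter could be passed through T. grandis alone or through the other species alone, which favours a difference by itself. In 28 of the 51 components the remaining features reached 1 TPM in a library on both sides, and of these 12 were higher and 6 lower in T. grandis. These 42.9% and 21.4% stand beside 35.2% higher and 15.6% lower over the 3394 components of this kind, so the balance of lower to higher calls turned round, among these components as among all.

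Set against each species by itself, the remaining features were higher in T. grandis than in P. chienii in 18 components and lower in 17, beside 33.6% and 32.8% of all components. Against A. argotaenia they were higher in 13 and lower in 21, beside 23.6% and 31.2%. These counts include components that reached 1 TPM on 1 side alone, which favours a difference by itself, so no direction is read from them. Where the remaining features reached 1 TPM on both sides, they were higher in 5 and lower in 6 of 17 components against P. chienii. On the same terms they were higher in 6 and lower in 7 of 26 against A. argotaenia. The shares called over all 2273 and 3008 components of these kinds are not given, so nothing is read from these counts. The T. grandis libraries are the same in both comparisons. The T. grandis mean was the highest of the 3 species in 13 of the 17 components called higher. It was the lowest in 14 of the 23 called lower, and tied as the lowest at 0 TPM with another species in 5 more. These positions partly follow from the calls and the filter, and no share over all components stands beside them, so nothing is read from them. Of the 17 components called higher, 11 had overlapping sums over all their features, 4 had lower sums in T. grandis and 2 had T. grandis sums of at most 0.333 times the others. Of the 23 called lower, 18 had T. grandis sums of at most 0.333 times the others. The sums contain both the chosen feature and the remaining ones, so this division partly follows from the calls.

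**Figure D4:**
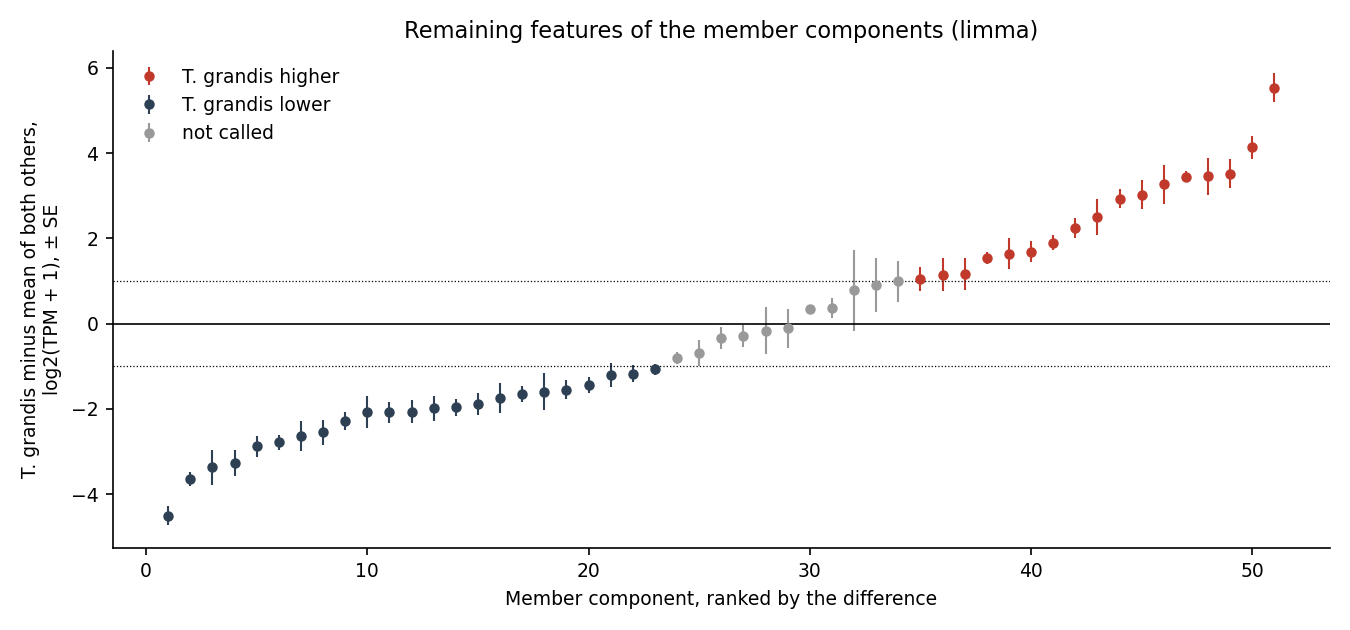
Difference between T. grandis and the mean of P. chienii and A. argotaenia on the log2(TPM + 1) scale for the summed remaining features of 51 components. Components are ranked from the lowest to the highest difference, with bars for the SE of limma and dotted lines at 2-fold. The differences run in both directions, with 23 components called lower, 17 called higher and 11 not called, of which 6 lower and 12 higher reached 1 TPM in a library on both sides.

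The strongest rise of remaining features in T. grandis was in TRINITY_DN41890_c0, where TRINITY_DN41890_c0_g2 was at 46.5, 53.7 and 95.8 TPM in T. grandis, against 0, 0 and 0.48 TPM in P. chienii and 1.19, 0 and 0.98 TPM in A. argotaenia. The log2 difference from the mean of both others was 5.53 ± 0.34 (SE). No p is given, because A. argotaenia replicate 1 was the only other library at 1 TPM, too few for the filter without T. grandis. The chosen feature of this component was 1 of the most abundant of the 81, and it held 28.6% of the component in T. grandis, 99.9% in P. chienii and 99.5% in A. argotaenia. The whole component was at 73.9, 79.1 and 121 TPM in T. grandis, against 179, 187 and 168 TPM in P. chienii and 114, 165 and 159.9 TPM in A. argotaenia, where T. grandis replicate 3 overlapped A. argotaenia. TRINITY_DN48241_c0_g2 was at 18.9, 14.8 and 26.6 TPM in T. grandis, against 0, 0.62 and 0 TPM in P. chienii and 0, 0.59 and 0 TPM in A. argotaenia. Its log2 difference was 4.13 ± 0.28 (SE), with no p given, because it passed the filter through T. grandis alone. The whole component was at 23.0, 19.6 and 31.2 TPM in T. grandis, against 54.5, 40.5 and 41.3 TPM in P. chienii and 16.4, 19.6 and 20.1 TPM in A. argotaenia, so the T. grandis sums overlapped those of A. argotaenia and lay below those of P. chienii.

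In TRINITY_DN45930_c1 the remaining features summed to 214, 149.8 and 112 TPM in T. grandis, against 12.5, 7.86 and 3.97 TPM in P. chienii and 22.8, 14.9 and 25.5 TPM in A. argotaenia. The log2 difference was 3.52 ± 0.35 (SE; limma adjusted p = 1.96e-05). The leading feature in T. grandis was TRINITY_DN45930_c1_g3, at 210.1, 149 and 111 TPM there. With the chosen feature included the component was at 261, 187 and 138 TPM in T. grandis, against 351, 453 and 538 TPM in P. chienii and 467, 264 and 458 TPM in A. argotaenia, and the highest T. grandis library came close to the lowest A. argotaenia library. TRINITY_DN44565_c0_g3 was at 5.10, 6.57 and 27.3 TPM in T. grandis and was listed at 0 in all 6 other libraries, so it too passed the filter through T. grandis alone. T. grandis replicate 3 carried most of that level. The chosen feature of the component, TRINITY_DN44565_c0_g1, was at 6.95, 9.49 and 9.82 TPM in T. grandis, against 35.8, 43.8 and 51.0 TPM in P. chienii and 45.8, 45.8 and 56.7 TPM in A. argotaenia.

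In the 4 components that follow, the remaining features passed the filter through P. chienii and A. argotaenia alone, and their values are given without a p. They were lowest in T. grandis, relative to the mean of both others, in TRINITY_DN52246_c1, at 0.41, 0.45 and 0 TPM in T. grandis, against 58.2, 80.5 and 73.0 TPM in P. chienii and 13.6, 8.50 and 10.8 TPM in A. argotaenia. The log2 difference was -4.51 ± 0.22 (SE). The chosen feature TRINITY_DN52246_c1_g1 was at 2.25, 2.61 and 3.19 TPM in T. grandis, against 25.1, 27.1 and 25.0 TPM in P. chienii and 11.9, 10.6 and 13.5 TPM in A. argotaenia, so both parts of the component were ordered P. chienii, A. argotaenia, T. grandis. In TRINITY_DN40695_c0 the remaining features summed to 0.3, 0.53 and 0.4 TPM in T. grandis, against 19.6, 18.8 and 21.0 TPM in P. chienii and 13.9, 13.7 and 14.3 TPM in A. argotaenia. The log2 difference was -3.65 ± 0.16 (SE). Its chosen feature TRINITY_DN40695_c0_g1 was at 2.58, 2.97 and 3.41 TPM in T. grandis, against 13.8, 28.0 and 39.3 TPM in P. chienii and 29.8, 25.1 and 16.0 TPM in A. argotaenia. The component as a whole was low in each T. grandis library.

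TRINITY_DN49557_c0 holds the feature with the lowest ratio of the 81, and its remaining features were listed at 0 in all T. grandis libraries, against 27.7, 9.56 and 7.35 TPM in P. chienii and 4.10, 10.7 and 7.04 TPM in A. argotaenia. In TRINITY_DN47292_c0 the remaining features were likewise listed at 0 in T. grandis, against 9.56, 6.95 and 3.62 TPM in P. chienii and 7.37, 14.2 and 15.5 TPM in A. argotaenia. The chosen feature TRINITY_DN47292_c0_g1 was at 2.74, 4.22 and 3.91 TPM in T. grandis, against 20.04, 19.4 and 15.8 TPM in P. chienii and 23.4, 19.6 and 27.4 TPM in A. argotaenia. No feature of these components other than the chosen one was above 0 TPM in T. grandis. Remaining features were at 0 in all T. grandis libraries in 11 of the 23 components called lower, and at 0 in all 6 other libraries in 4 of the 17 called higher. These features are by definition below 1 TPM in some library, which favours values of 0. No share over all components stands beside these counts, so they are not read as a trait of the 81.

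**Figure D5:**
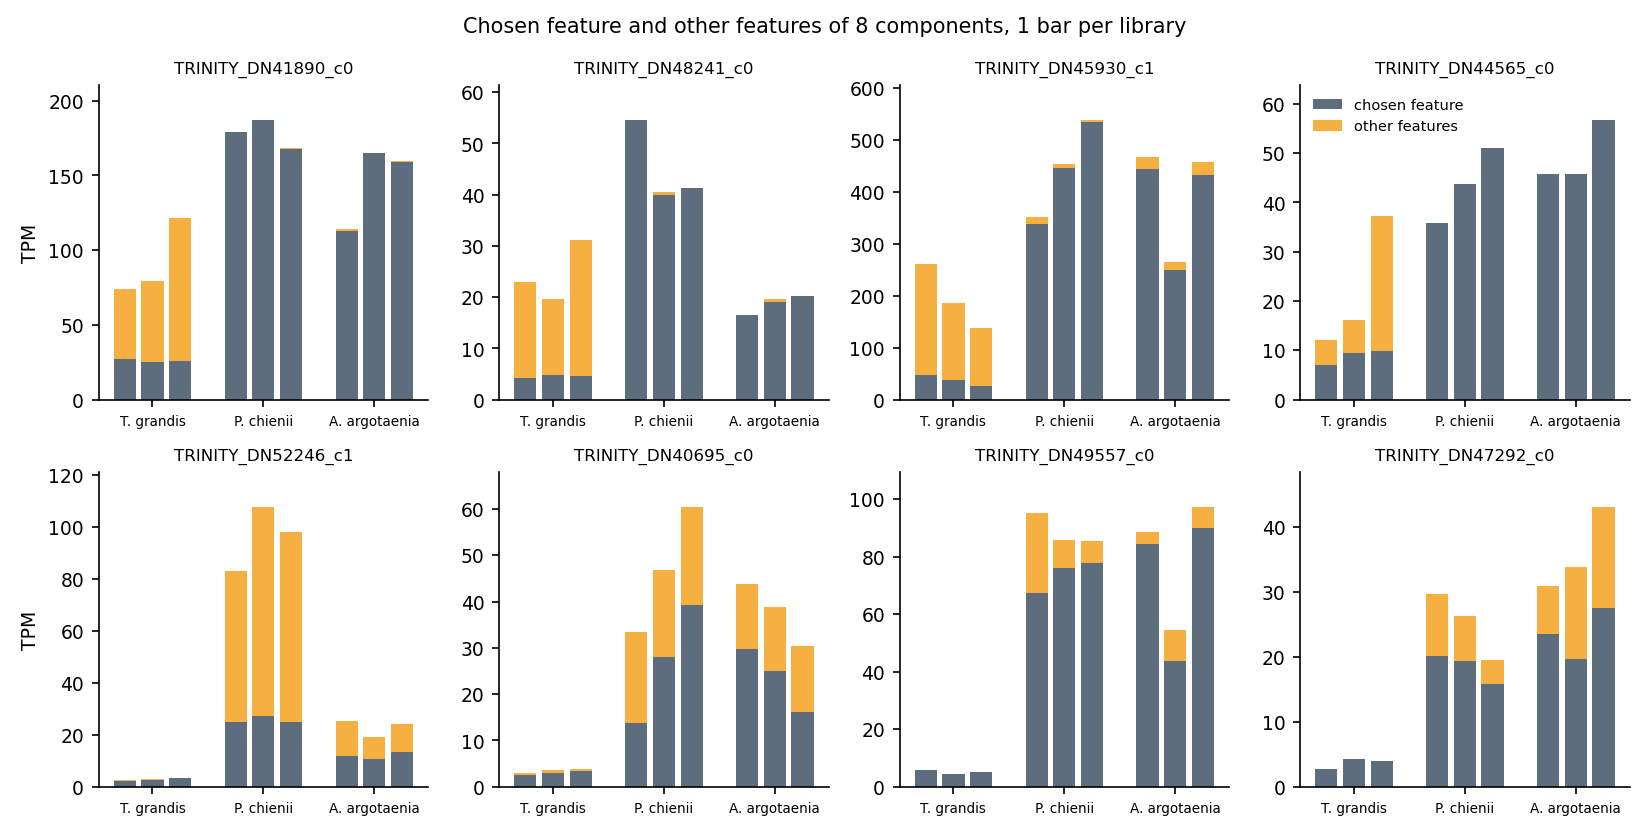
TPM of the chosen feature (grey) and of the other features of its component (orange), stacked, in each of the 9 libraries of 8 components. In the upper row, the 4 components whose remaining features were most above the other species in T. grandis, other features make up most of each T. grandis bar apart from replicates 1 and 2 of TRINITY_DN44565_c0, and in the lower row, the 4 most below, the T. grandis bars hold mostly the chosen feature and stay under 6 TPM.

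Among the 24 features alone in their component, no companion could hold a T. grandis level within the same component. TRINITY_DN41806_c0_g1, TRINITY_DN53021_c1_g1 and TRINITY_DN38612_c0_g1, described above, were of this kind. So was TRINITY_DN40532_c0_g1, at 7.31, 6.99 and 6.66 TPM in T. grandis, against 38.9, 37.5 and 34.4 TPM in P. chienii and 105, 80.0 and 109 TPM in A. argotaenia. TRINITY_DN38944_c0_g1 was at 7.02, 7.83 and 8.43 TPM in T. grandis, against 73.7, 61.1 and 68.4 TPM in P. chienii and 40.0, 36.0 and 41.6 TPM in A. argotaenia, and TRINITY_DN45799_c0_g1 was at 5.86, 6.49 and 6.54 TPM in T. grandis, against 22.3, 23.4 and 24.7 TPM in P. chienii and 45.3, 40.4 and 42.9 TPM in A. argotaenia. The P. chienii libraries of the first all lay above those of A. argotaenia and those of the second all below, by under 2-fold on the log2(TPM + 1) scale. Both examples were chosen after their values were seen. Counterparts that Trinity placed in another component were not looked for, since the files hold no sequences.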

How the data were processed

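Per the labels' protocols, total RNA of fresh twigs was extracted with Trizol and libraries were made by standard Illumina protocols. The deposited values are in TPM, a unit read from the values because the file headers name none: library sums lay between 999890 and 999947, and no step common to the low values was found. Trinity is named per the labels. The quantifier, the assembly input, versions and filters are not named in any source used here. Depth is unknown, so no counting interval was computed.

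The 81 features, the lists and the tests were chosen with earlier results of these data known. Levels of T. grandis against the other species chose the features and were not tested. Tests were run on log2(TPM + 1) with limma (version 3.58.1, R version 4.3.3), whose variance prior followed the mean level. The fit held all 9 libraries with species as its single term, p-values were two-sided with Benjamini-Hochberg adjustment, and a call needed both an adjusted p below 0.05 and a 2-fold change. Rows needed 1 TPM in at least 3 libraries. Fold changes on this scale understate those of low features. A component is the ID without its gene number. Named features were the 10 most abundant in P. chienii and A. argotaenia, the 5 with the lowest ratio, the 4 largest changes each way in each test, and the 3 nearest each side of the ratio threshold; others are said to be chosen after their values were seen. No component held more than 1 of the 81. Both fits were run on simulated data with known changes and normal noise around a level common to all species. Those data differ from sums at 0 in a whole species, and the outcome is not given here. Other values came from Python 3.11.15 (pandas 2.3.3, numpy 2.4.6), and plots were drawn with matplotlib 3.10.9. Alternatives were other pseudocounts, filters, scalings, thresholds, a replicate block and leaving out libraries; leaving out the 3 libraries that stood apart, and keeping only components at 1 TPM on both sides, were chosen after seeing the data.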

Additional observations from a re-analysis of the deposited data

How the results depend on the processing

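The number of features that meet the rule was 286 when the lowest other library had to be only 2 times the highest T. grandis library, 35 when it had to be 4 times, 50 with a T. grandis mean of at least 10% of each other species, and 220 without the 3 libraries that stood apart. Leaving out 1 library gave 83 to 158, the highest without T. grandis replicate 3. Fewer libraries loosen the rule by construction. Trimmed-mean scaling gave 89 features, 74 of them among the 81, and quantile normalization 71, 60 of them among the 81. Between P. chienii and A. argotaenia, 5 features were higher with trimmed-mean scaling and 6 without the 3 libraries that stood apart, against 10 otherwise; the cause was not tested. Without a minimum fold 24 were higher and 20 lower, by construction. Leaving out 1 library gave 7 to 10 higher and 5 to 6 lower. For the remaining features of components, a pseudocount of 5 gave 11 higher and 15 lower in T. grandis than the mean of both others, and it shrinks low levels by construction. With only components that reached 1 TPM in a library on both sides, there were 12 higher and 6 lower, 5 higher and 6 lower against P. chienii, and 6 higher and 7 lower against A. argotaenia, by construction fewer. No share over all components stands beside the counts against each single species, so nothing is read from those counts. Leaving out 1 library gave 14 to 17 higher and 22 to 23 lower, 17 to 20 higher and 17 to 18 lower against P. chienii, and 12 to 14 higher and 20 to 22 lower against A. argotaenia. Of the differences of named features and components under these settings, 254 kept their direction and side of the threshold, 10 fell below it with the same direction and 0 reversed. Part of this was fixed beforehand, since leaving out a T. grandis library cannot alter a difference between P. chienii and A. argotaenia, only its p. The 254 also include components given without a p above, because they passed the filter through 1 side alone. Replicate numbers are shared by the species, but of 9 same-numbered pairs of libraries only 3 had deviations that correlated over 0.1. Not every library correlated best with its own number, so no pairing by number was seen. Deviations from a mean of 3 libraries depend on each other, so these correlations cannot exclude such a pairing. With the replicate number as a block, 10 features were higher and 6 lower in P. chienii, and 17 components were higher and 23 lower in T. grandis. The number of reads behind low T. grandis levels is unknown, which limits the 10 features averaging under 2 TPM there.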
